A study of Mus musculus with 63 samples.

Results

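The miR-200 family, comprising miR-200a, miR-200b, miR-200c, miR-141 and miR-429, was followed through 4 sorted mouse kidney cell types in health, injury and repair. Its members were a fixed list of 8 mature arms, each matched by name to 1 of the 2110 loci of the counts table. The table also held the arms miR-200c-5p and miR-429-5p, with 8 counts each over all libraries, which were not on the list. Of these, 5 belong to the cluster of miR-200b, miR-200a and miR-429 on chromosome 4, and 3 belong to the cluster of miR-200c and miR-141 on chromosome 6. Small RNA-sequencing (sRNA-Seq) was performed on proximal tubular (PT) cells, PDGFR-β+ cells, endothelial cells (ECs) and macrophages (Macs), which were isolated by FACS with LTL, PDGFRB, CD31 and F4/80. All mice were male C57BL/6 animals aged 8 to 12 weeks. They had a sham operation, unilateral ureteric obstruction for 2 days (UUO-2) or 7 days (UUO-7), or 7 days of obstruction followed by 2 weeks after its reversal (R-UUO). Each group of a cell type and condition held 4 libraries from 4 mice, except PDGFR-β+ cells at UUO-7, which held 3, so that 63 libraries came from 16 mice. Of 5 operated mice per group, the 4 with an Havcr1 level nearest the group mean had been sequenced, which may narrow the spread between mice.

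Members of the miR-200 family are known as miRNAs of epithelial cells. They repress the transcription factors ZEB1 and ZEB2, which in turn repress E-cadherin and the miR-200 genes themselves, and loss of the family accompanies the epithelial-mesenchymal transition. In the kidney, tubular epithelium is where the family is known to be expressed. A miRNA finds its targets mainly through its seed, the bases near its 5′ end.

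The mature sequences are given because both seeds of the 3p arms are carried by members of both clusters, which the results set against each other. All 8 members were matched by name and position to RefSeq sequences (GRCm38.p6). Capitals mark the seed, bases 2 to 8 from the 5′ end. The first set carries the seed of the miR-200b group.
mmu-miR-200b-3p: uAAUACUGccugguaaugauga
mmu-miR-200c-3p: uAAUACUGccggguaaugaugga
mmu-miR-429-3p: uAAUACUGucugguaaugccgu

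The second set carries the seed of miR-200a and miR-141.
mmu-miR-200a-3p: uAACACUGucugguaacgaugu
mmu-miR-141-3p: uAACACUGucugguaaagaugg

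The remaining 3 members are the 5p arms of their hairpins, and their seeds are not shared between the clusters.
mmu-miR-200b-5p: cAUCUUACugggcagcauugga
mmu-miR-200a-5p: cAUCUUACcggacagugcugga
mmu-miR-141-5p: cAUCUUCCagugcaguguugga

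Counting from 1 at the 5′ end, miR-200b-3p differed from miR-200c-3p over their 22 shared positions at U11G and A22G, and miR-200a-3p differed from miR-141-3p at C17A and U22G. The seeds of both groups differ by 1 base, as in U4C from miR-200b-3p to miR-200a-3p. How reads that fit more than 1 locus were placed is not given in the sources used here, so a short fragment of one member could have been counted at another. Levels are compared between members as counts of whole molecules of 22 or 23 bases, without scaling by length, and an uneven capture of different sequences in library preparation was not tested.

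All 8 loci lie on the minus strand of GRCm38. The chromosome 4 cluster spans 1827 bases (chr4:156053916-156055742). From its 5′ end it holds miR-200b-5p (chr4:156055721-156055742), miR-200b-3p (chr4:156055685-156055706), miR-200a-5p (chr4:156054949-156054970), miR-200a-3p (chr4:156054911-156054932) and miR-429-3p (chr4:156053916-156053937). GENCODE places it inside the noncoding gene Gm13648 and the protein-coding gene Ttll10. The miR-429-3p locus lies in an exon of Gm13648, and the other 4 lie inside both genes but outside their exons. The chromosome 6 cluster spans 430 bases (chr6:124717917-124718346) and holds miR-200c-3p (chr6:124718324-124718346), miR-141-5p (chr6:124717959-124717980) and miR-141-3p (chr6:124717917-124717938). It lies inside the antisense gene Gm15884, and the miR-141-3p locus also overlaps an exon of the unclassified transcript Gm29008.

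Libraries held 616565 to 10819385 counts in all, and PT cells had the lowest median total (1043054 counts). The family took 0.457% to 1.097% of the counts of a PT cell library, 0.0422% to 0.174% in PDGFR-β+ cells, 0.0712% to 0.192% in Macs and 0.0316% to 0.0574% in ECs. Marker miRNAs separated the cell types. The summed level of 2 EC markers (miR-126a-3p and miR-126a-5p) was 93100 to 173000 CPM (counts scaled to a common library total) in ECs and at most 3520 elsewhere, and that of 4 Mac markers (miR-142a-3p, miR-142a-5p, miR-223-3p and miR-511-3p) was 14800 to 42000 CPM in Macs and at most 698 elsewhere. The sum of 5 PDGFR-β+ cell markers was 92500 to 401000 CPM in PDGFR-β+ cells and at most 46000 elsewhere. Of the 3 PT markers, miR-192-5p and miR-194-5p were high in PT cells, where the sum was 16100 to 130000 CPM against at most 5210 elsewhere, while miR-215-5p averaged under 3 CPM in every cell type. In sorted bulk libraries, more cells that carry a miRNA and more copies per cell cannot be told apart.

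The first comparison asked in which cell type the family was expressed. All 8 members were higher in PT cells than in the mean of the other 3 cell types across all conditions. A locus was called where edgeR's quasi-likelihood test gave a Benjamini-Hochberg adjusted p (FDR) under 0.05 and a fold change over 1.5, and 32.9% of the 671 loci tested were called higher in PT cells. The median log2 difference was 3.14 over the members and -0.03 over all loci. Levels below are CPM scaled by TMM over all libraries.

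The most abundant member was miR-200b-3p. In PT cells its lowest, median and highest levels were 3050, 4575 and 5500 CPM (16 libraries), against 179, 328 and 893 CPM in the other 47 libraries. The groups did not overlap, and the log2 difference was 3.62 (SE 0.0923, FDR = 3.49e-39 by edgeR). Its cluster mate miR-429-3p lay between 1450 and 2760 CPM in PT cells and between 85 and 716 CPM elsewhere, with a log2 difference of 3.22 (SE 0.107). The levels of miR-200a-3p were 498 to 1250 CPM in PT cells and 32.2 to 345 CPM elsewhere, with a log2 difference of 3.06 (SE 0.106). Every PT cell library thus exceeded every other library for these 3 members, and the same held for the minor arms of the cluster. The share of all loci that separate in this way is not given here, so how unusual such a separation is cannot be read from it. The largest difference of the family belonged to the minor arm miR-200b-5p, which lay at 26.6 to 69.8 CPM in PT cells and 0.00 to 9.50 CPM elsewhere (log2 difference 4.30, SE 0.221). For miR-200a-5p the ranges were 22.0 to 45.5 CPM and 0.558 to 12.7 CPM (log2 difference 3.28, SE 0.179).

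The chromosome 6 cluster overlapped between PT cells and the others. The levels of miR-141-3p in PT cells spanned 63.2 to 1940 CPM (median 494) and overlapped the 40.3 to 405 CPM of the other libraries, with 10 of 16 PT cell libraries above every other library (log2 difference 1.79, SE 0.154, FDR = 1.2e-15 by edgeR). For miR-200c-3p the ranges were 6.16 to 133 CPM and 1.66 to 19.7 CPM, and 13 of 16 PT cell libraries exceeded every other library (log2 difference 3.03, SE 0.182). The minor arm miR-141-5p had 0.902 to 24.3 CPM in PT cells and 0.00 to 6.06 CPM elsewhere (log2 difference 2.44, SE 0.316). The PT cell libraries that did not stand above the rest were 3 sham libraries for miR-200c-3p, and for miR-141-3p all 4 sham libraries with UUO-2 replicate 1 and R-UUO replicate 4. For miR-141-5p they were the 4 sham libraries, UUO-7 replicate 3 and R-UUO replicate 4.

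**Figure D1:**
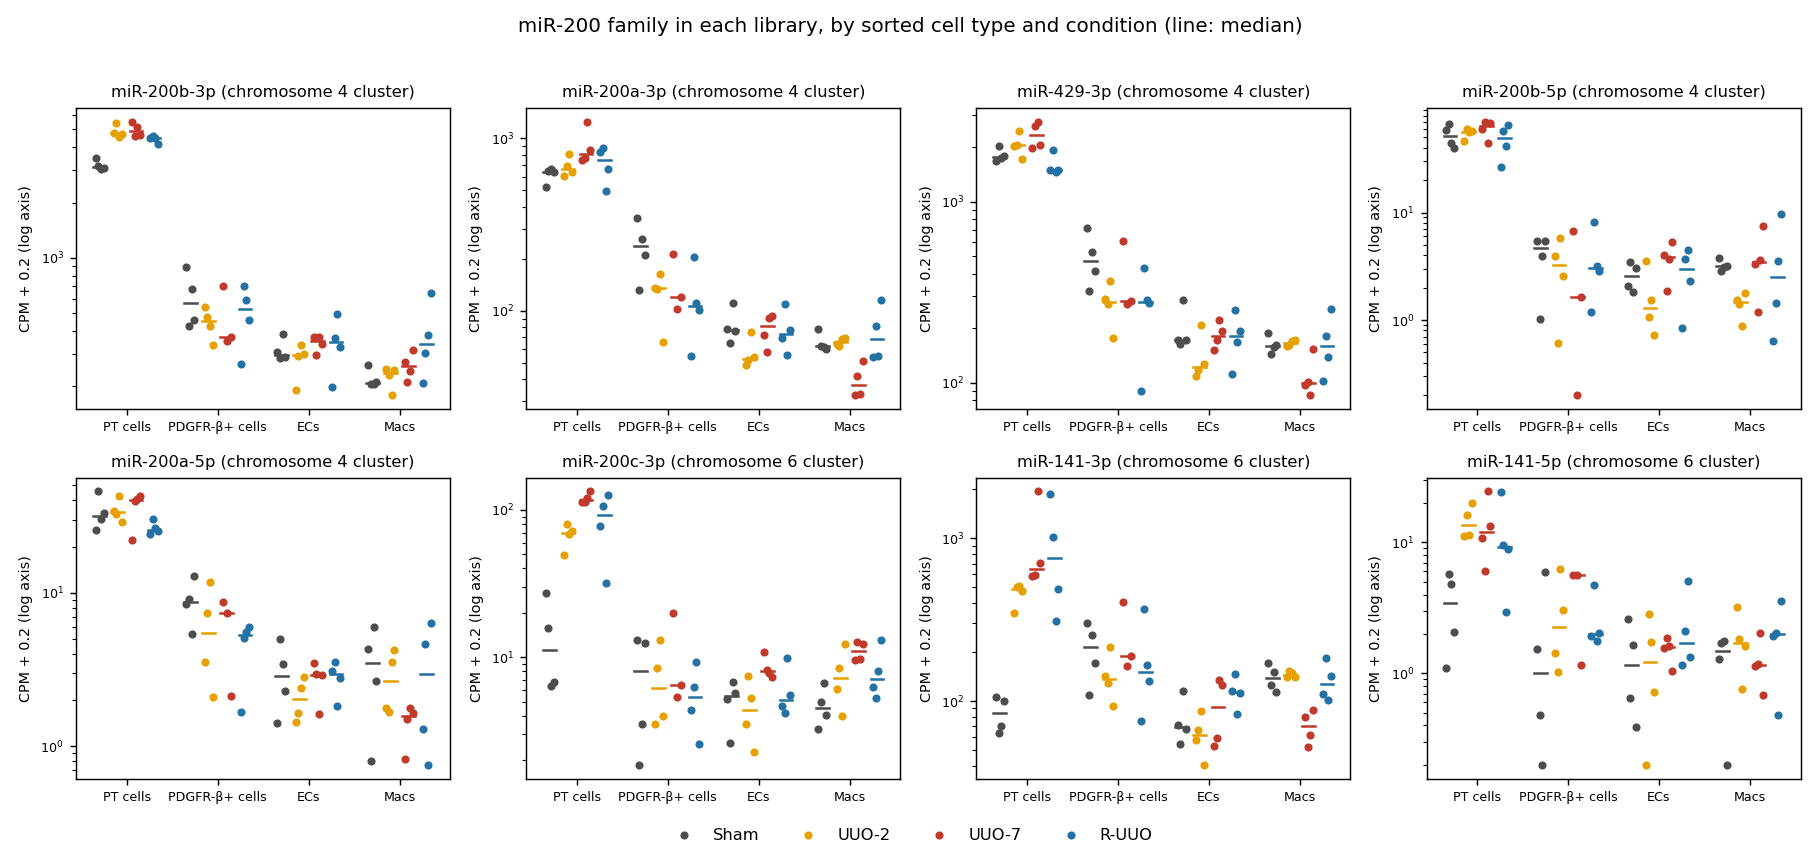
Level of each member in each of the 63 libraries, in CPM scaled over all libraries plus 0.2 on a log axis, by sorted cell type and condition; each point is 1 library of 1 mouse and each line the group median. The 5 members of the chromosome 4 cluster are higher in all 16 PT cell libraries than in any other library, while miR-141-3p in sham PT cells (63.2 to 106 CPM) lies among the other cell types. The share of all loci that separate in this way is not given.

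Within the sham condition alone, 6 of 8 members were higher in PT cells, against 29.1% of loci called higher there. The exceptions were both arms of miR-141. In sham PT cells miR-141-3p measured 106, 63.2, 70.1 and 99.3 CPM, while the 12 sham libraries of the other cell types ranged from 54.6 to 301 CPM with a median of 120. The PT cell libraries fell inside that range, and the log2 difference of -0.63 (SE 0.349, FDR = 0.122 by edgeR) did not pass the test. Without the count filter the same difference had an FDR of 0.0301, and without UUO-7 replicate 4 in the fit it was -0.78 with an FDR of 0.0342, so that miR-141-3p was then called lower in sham PT cells. For miR-141-5p, with 1 to 6 counts per sham PT cell library, the log2 difference was 1.33 (SE 0.738, FDR = 0.121), which passed by DESeq2 (1.58, FDR = 0.0388) and with library size alone (1.98, FDR = 0.0144). The level of miR-200c-3p was higher in sham PT cells (log2 difference 1.31, SE 0.414, FDR = 0.0053), but without the sham replicate 1 library, in which it was highest, the difference was 0.85 with an FDR of 0.163. At UUO-2, UUO-7 and R-UUO, all 8 members were higher in PT cells, where 29.2%, 26.7% and 27.1% of loci were called higher. For miR-141-3p the log2 differences were then 2.06, 3.02 and 2.70. At UUO-2 and UUO-7 the 4 PT cell libraries were above every other library for all 8 members. The share of all loci without overlap in these conditions is not given here.

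Between pairs of cell types, PT cells exceeded ECs, Macs and PDGFR-β+ cells for all 8 members in each case, where 36.5%, 33.4% and 32.8% of loci were called higher. The smallest of these differences was that of miR-141-3p from PDGFR-β+ cells (log2 1.15). PDGFR-β+ cells came second for the more abundant members. They exceeded ECs for 5 members (20.9% of loci called higher) by log2 differences of 0.66 for miR-200b-3p to 1.32 for miR-200a-5p, and Macs for 6 members (35.9% of loci called higher). Against Macs the differences of miR-141-3p and miR-141-5p were the least firm, at 0.40 (FDR = 0.0797) and 0.69 (FDR = 0.137) without UUO-7 replicate 3. The order of PDGFR-β+ cells and Macs rests on the scaling. With TMM, the scaling factors were 1.37 to 2.01 in Macs and 0.622 to 1.09 in PDGFR-β+ cells, and with scaling by library size alone 1 member was called and it was lower in PDGFR-β+ cells, while the median over all loci moved from 0.06 to -0.90. Between ECs and Macs, edgeR called no member, with 3 at an unadjusted p under 0.05 and none called by DESeq2, whereas 64.7% of loci were called in either direction. The differences of miR-141-3p (log2 -0.47, FDR = 0.032) and miR-200b-3p (0.27, FDR = 0.0472) passed the FDR by edgeR but not the 1.5-fold minimum. With library size alone all 8 members were called lower in ECs, and the median over all loci moved from -0.03 to -1.30. The higher level in PT cells was called for all 8 members under either scaling.

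The next comparison asked how the family changed with obstruction within PT cells, and here the clusters parted. The 3 members of the chromosome 6 cluster rose and the 5 members of the chromosome 4 cluster were not called. For these tests libraries were scaled within the cell type, and levels of members in the comparisons within a cell type are CPM on that scale, while levels of markers and of other miRNAs remain CPM scaled over all libraries. At UUO-2, UUO-7 and R-UUO, 3 of 8 members were called higher than in sham each time, against 14.8%, 25.5% and 25.8% of the 330 loci tested. No member was called lower. The 3 comparisons share the same sham libraries. Wherever conditions are said not to overlap within a cell type, the share of all loci that separate in this way is not given here.

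Sham PT cells had 127, 72.9, 82.1 and 119 CPM of miR-141-3p. At UUO-2 the values were 402, 572, 584 and 526 CPM, at UUO-7 they were 629, 668, 2170 and 764 CPM, and at R-UUO they were 2260, 1130, 365 and 543 CPM. Each injured or reversed library exceeded each sham library, and 1 library in each of the last 2 groups stood far above the others. The log2 fold change was 2.38 at UUO-2 (SE 0.511, FDR = 0.00455), 3.40 at UUO-7 (SE 0.529, FDR = 0.000152) and 3.42 at R-UUO (SE 0.53, FDR = 0.000134), all by edgeR, or 5.19-fold, 10.5-fold and 10.7-fold. Without the highest library, UUO-7 replicate 4, the log2 fold change at UUO-7 was 2.76 (FDR = 0.000503), and without R-UUO replicate 1 it was 2.80 at R-UUO (FDR = 0.000135).

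Levels of miR-200c-3p in sham PT cells were 32.4, 17.9, 7.22 and 7.83 CPM, from 7 to 30 counts. They were 57.2, 91.7, 77.9 and 79.5 CPM at UUO-2, 120, 128, 135 and 144 CPM at UUO-7, and 93.8, 117, 37.5 and 140 CPM at R-UUO. The UUO-7 libraries lay close together and above all UUO-2 libraries, and none of the injured or reversed libraries overlapped sham. The log2 fold changes were 2.24 (SE 0.429, FDR = 0.003), 3.02 (SE 0.432, FDR = 7.76e-05) and 2.59 (SE 0.431, FDR = 0.000226).

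The minor arm miR-141-5p moved in the same direction from a much lower level. Sham PT cells held 1.08, 6.39, 5.41 and 2.24 CPM, UUO-2 12.8, 18.2, 12.7 and 21.9 CPM, UUO-7 11.3, 6.57, 27.2 and 14.3 CPM, and R-UUO 29.3, 10.3, 3.26 and 9.65 CPM. Sham overlapped R-UUO but not UUO-2 or UUO-7. The log2 fold changes were 2.09 (FDR = 0.0321), 1.98 (FDR = 0.0172) and 1.84 (FDR = 0.0323). These calls rested on few counts. Leaving out sham replicate 1 or sham replicate 4 took the FDR above 0.05 in all 3 comparisons, up to 0.09, as did leaving out any of UUO-2 replicates 1, 2 and 4 (up to 0.0948), UUO-7 replicate 4 (0.0802) and R-UUO replicate 1 (0.185), each in its own comparison.

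In the chromosome 4 cluster, miR-200b-3p had 4170, 3620, 3580 and 3700 CPM in sham PT cells, 5580, 6170, 5200 and 5250 CPM at UUO-2, 5890, 5190, 5730 and 5060 CPM at UUO-7, and 5430, 5100, 5300 and 4650 CPM at R-UUO. Sham did not overlap the other groups. Its log2 fold changes of 0.56, 0.54 and 0.44 had FDRs of 0.00332, 0.000945 and 0.00505, but at 1.47-fold, 1.45-fold and 1.36-fold they stayed under the fold change of 1.5 that a call requires. At UUO-7 the value passed 1.5-fold without the count filter (0.64) and with the number as a replicate block (0.60). With library size alone the 3 values were 0.37, 0.18 and 0.00. For miR-200a-3p the log2 fold changes were 0.11, 0.46 and 0.19, and for miR-429-3p they were 0.15, 0.29 and -0.22, none with an FDR under 0.05. Those of the minor arms miR-200b-5p and miR-200a-5p lay between -0.37 and 0.12.

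Between UUO-2 and UUO-7 no member was called in PT cells by edgeR, with 1 at an unadjusted p under 0.05 and none called by DESeq2, and 4.24% of loci were called in either direction. The values for miR-141-3p (log2 fold change 1.02, SE 0.48, FDR = 0.222) and miR-200c-3p (0.78, FDR = 0.254) did not pass. All 4 UUO-7 libraries exceeded all 4 UUO-2 libraries for both, but without the share of all loci that separate in this way no change can be read from it. Between UUO-7 and R-UUO none was called by either tool, with 1 at an unadjusted p under 0.05, against 1.52% of loci. The log2 fold changes there were 0.03 for miR-141-3p (SE 0.474) and -0.43 for miR-200c-3p, and neither passed the test 2 weeks after reversal.

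**Figure D2:**
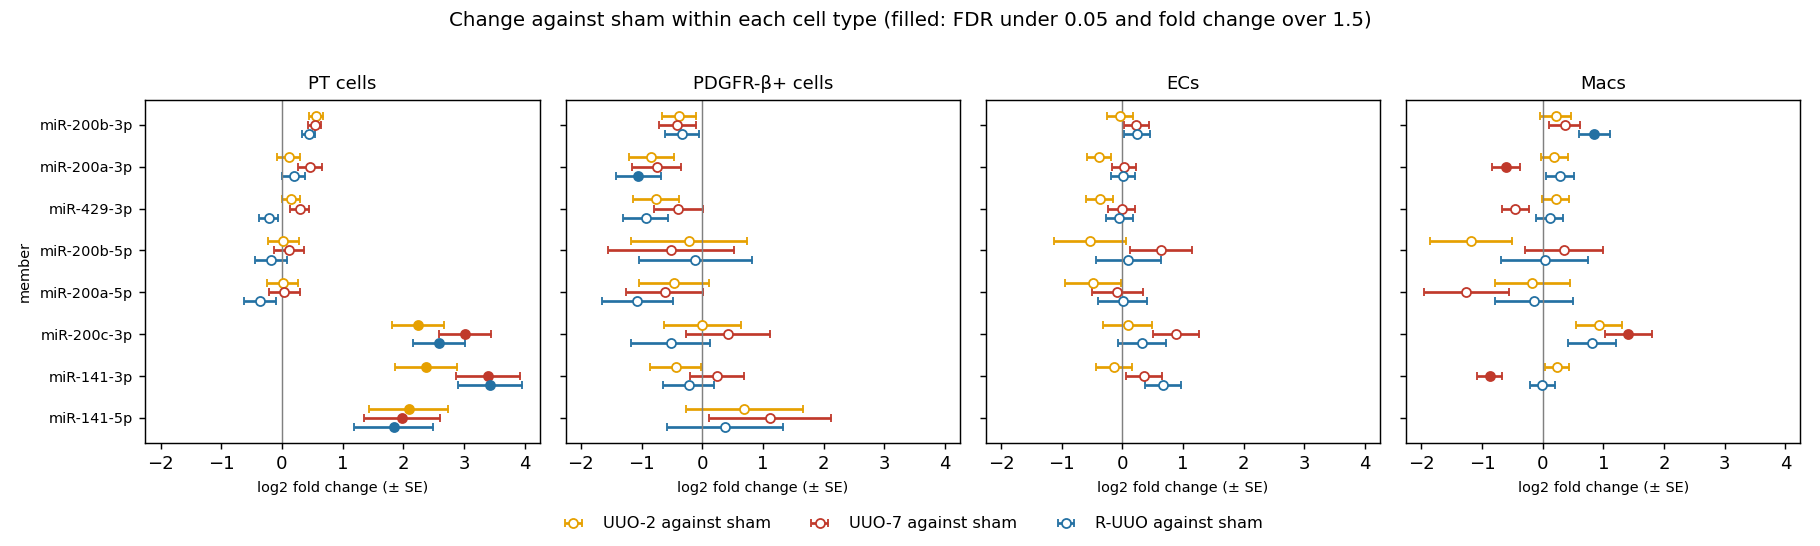
Log2 fold change against sham, with its SE, for each member in each cell type at UUO-2, UUO-7 and R-UUO; filled points passed the test and the 1.5-fold minimum, and miR-141-5p was below the count filter in ECs and Macs. The chromosome 6 cluster stands apart in PT cells, where its log2 fold changes lie between 1.84 and 3.42.

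Markers of other populations moved in the same PT cell libraries, and all levels in this paragraph are CPM scaled over all libraries. The summed PT marker level went from a median of 127000 CPM in sham to 61800, 41700 and 47800 CPM in the UUO-2, UUO-7 and R-UUO groups, while that of the 5 PDGFR-β+ cell markers went from 2450 to 7470, 7970 and 5210 CPM. This sum was almost all miR-143-3p, which was called higher at all 3 (log2 fold changes 1.66, 1.99 and 2.03), as was miR-145a-5p (2.92, 2.56 and 4.29 at lower levels). The R-UUO values of both lean on replicate 1. There miR-143-3p stood at 24900 CPM against 3690 to 5600 CPM in the other R-UUO libraries, and miR-145a-5p at 759 against 35.5 to 107 CPM. Of the other PDGFR-β+ cell markers, miR-199a-3p was 94.6 to 115 CPM in sham and 65.2 to 205 CPM later. It was not called (-0.26, 0.34 and -0.04), nor was miR-199a-5p. Sham and UUO-7 did not overlap, however, for miR-199a-5p (4.43 to 11.7 against 14.8 to 22.8 CPM) or for miR-214-3p, which was at 0.77 to 4.43 CPM in sham and 4.94 to 7.27 CPM at UUO-7. The 2 libraries with the most miR-141-3p, UUO-7 replicate 4 and R-UUO replicate 1, also had the most miR-143-3p (17900 and 24900 CPM) and the least miR-192-5p of their groups (31500 and 15600 CPM). R-UUO replicate 1 further held 233 CPM of miR-205-5p, a miRNA of stratified epithelium, against 13.8 to 32.9 CPM in the other R-UUO libraries. The summed Mac markers were low but also higher after sham, at 73.2 to 106 CPM in sham, 139 to 236 CPM at UUO-2, 136 to 237 CPM at UUO-7 and 102 to 281 CPM at R-UUO, without overlap between sham and UUO-2 or UUO-7. The summed EC markers were 565 to 819 CPM in sham and, without overlap, 838 to 1980 CPM at UUO-2, then 661 to 918 CPM at UUO-7 and 583 to 1890 CPM at R-UUO. PDGFR-β+ cell libraries held 74.7 to 405 CPM of miR-141-3p and 1.66 to 19.7 CPM of miR-200c-3p on the same scale. The paper allows that its approach may not tell portions of the nephron apart. The part of other cells in the rise, from other populations or other portions of the nephron, was not tested.

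Whether the change differed between cell types was tested as an interaction, which compares the change in PT cells with the mean change of the other 3 cell types. At UUO-2, 2 members rose more in PT cells, against 9.84% of 671 loci. These were miR-141-3p (log2 difference of changes 2.69, SE 0.482, FDR = 4.81e-05 by edgeR) and miR-200c-3p (2.09, SE 0.567, FDR = 0.00871). As the cell types share mice, the fit with mouse as a replicate block bears on these counts, and it called 3 members at UUO-2 and 4 at UUO-7, adding miR-200b-3p (0.79, FDR = 0.0265, and 0.66, FDR = 0.046). At UUO-7, 3 members did without the block, against 15.4% of loci. The values were 3.65 for miR-141-3p (SE 0.495, FDR = 4.49e-08), 2.29 for miR-200c-3p (SE 0.564, FDR = 0.00126) and 1.06 for miR-200a-3p (SE 0.33, FDR = 0.0108). The call for miR-200c-3p at UUO-2 was lost without sham replicate 3 (FDR = 0.0822) or sham replicate 4 (FDR = 0.0582) and with library size alone (1.65, FDR = 0.0549), and that for miR-200a-3p at UUO-7 without sham replicate 1 (FDR = 0.0691), without UUO-7 replicate 4 (FDR = 0.0686), by DESeq2 (FDR = 0.0921) and with library size alone (FDR = 0.485). The differences for miR-141-5p were 1.63 and 1.58 with FDRs of 0.316 and 0.242. From UUO-7 to R-UUO no member differed by edgeR or DESeq2, with none at an unadjusted p under 0.05, where 0.596% of loci were called.

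Ratios of 2 members within a library do not depend on how libraries are scaled. In PT cells the share of the chromosome 6 cluster in the family's counts was 1.75% ± 0.412 (SD, n = 4) in sham. It was 6.53% ± 0.964 after 2 days, 11.1% ± 4.98 after 7 days and 12.3% ± 7.44 after reversal. In sham it was 13.6% ± 1.75 in PDGFR-β+ cells, 11.9% ± 1.51 in ECs and 24.1% ± 2.35 in Macs, so sham PT cells had the lowest share, and the highest of them (2.27%) lay under the lowest of the other sham libraries (9.89%). The seed of the miR-200b group made up 87.7% ± 1.12 of the counts of the 5 major arms in sham PT cells and 85.9% ± 1.53, 80.6% ± 6.24 and 79.6% ± 8.17 at UUO-2, UUO-7 and R-UUO.

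**Figure D3:**
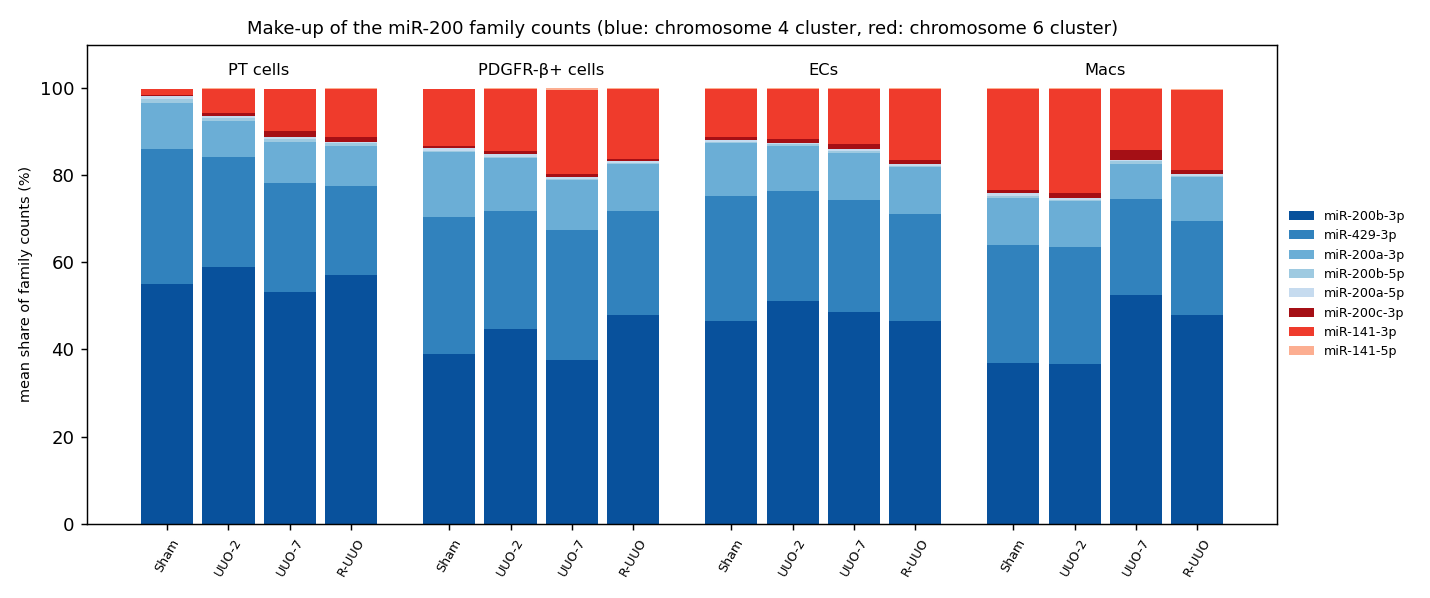
Mean share of each member in the family's counts, in percent, for each cell type and condition (n = 4 libraries, 3 for PDGFR-β+ cells at UUO-7); blue shades are the chromosome 4 cluster and red shades the chromosome 6 cluster. The red part grows in PT cells from 1.75% in sham to 12.3% at R-UUO.

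Among the members with the seed of miR-200a, the proportion that came from each cluster in PT cells shifted. The log2 ratio of miR-200a-3p to miR-141-3p was 2.30, 3.35, 3.24 and 2.67 in the sham libraries, with a mean of 2.89. It was 0.81, 0.46, 0.68 and 0.43 at UUO-2, 0.36, 0.38, -0.63 and 0.28 at UUO-7, and -1.16, -0.22, 0.69 and 0.46 at R-UUO. Sham libraries thus held 4.91 to 10.2 molecules of miR-200a-3p for each of miR-141-3p, while later libraries held 0.449 to 1.76, and none of them overlapped sham. A permutation test over the 16 libraries gave p = 0.0006, or 0.0028 after Benjamini-Hochberg adjustment over the 28 ratios and cell types tested between conditions. For the seed of miR-200b, the mean log2 ratio of miR-200b-3p to miR-200c-3p in PT cells was 8.06 in sham, then 6.19 after 2 days, 5.37 after 7 days and 5.86 after reversal (adjusted p = 0.00488, permutation test). Even at UUO-7, 35.1 to 48.8 molecules of miR-200b-3p were counted for each of miR-200c-3p.

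Whether these ratios moved differently elsewhere was not tested. In PDGFR-β+ cells the mean log2 ratio of miR-200a-3p to miR-141-3p fell from 0.20 in sham to -0.23, -0.76 and -0.57 (adjusted p = 0.00182, permutation test). In ECs it went from 0.13 to -0.10, -0.15 and -0.56 (adjusted p = 0.108) and in Macs from -1.09 to -1.15, -0.83 and -0.85 (adjusted p = 0.49). From sham to UUO-7 the ratio of miR-200b-3p to miR-200c-3p went from 5.62 to 4.56 in Macs (adjusted p = 0.0756 over the 4 conditions), from 6.69 to 5.68 in PDGFR-β+ cells (adjusted p = 0.597) and from 6.07 to 5.36 in ECs (adjusted p = 0.4). No ratio of the 2 arms of a hairpin passed between conditions in any cell type. Of the 28 tests 7 passed, and the other 4 set miR-200b-3p or miR-200c-3p against miR-192-5p. In PT cells the log2 ratio of miR-200b-3p to miR-192-5p, the abundant PT miRNA, went from -5.20 in sham to -3.03 at UUO-7 (adjusted p = 0.0028, permutation test), while miR-192-5p itself fell (log2 fold change -1.62, FDR = 0.000732 by edgeR). In Macs the ratio went from -4.12 in sham to -2.57 at UUO-7 and -2.01 at R-UUO (adjusted p = 0.00028), and that of miR-200c-3p to miR-192-5p from -9.74 to -7.13 and -7.55 (adjusted p = 0.00126).

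Ratios were also compared between PT cells and each other cell type of the same mouse, in an exact sign-flip permutation test over 15 or 16 mice. Of 21 such tests 15 passed an adjusted p of 0.05, among them every ratio to miR-192-5p, which had been chosen as a PT marker. The log2 ratio of miR-200a-3p to miR-141-3p was higher in PT cells than in ECs by 1.05 (13 of 16 mice, adjusted p = 0.00228), than in Macs by 1.86 (15 of 16 mice, adjusted p = 0.000427) and than in PDGFR-β+ cells by 1.23 (14 of 15 mice, adjusted p = 0.0015). These differences pool conditions that lay far apart, since the PT cell mean of 2.89 in sham stood against 0.13 in ECs, while at UUO-7 it was 0.10 against -0.15. Relative to its own minor arm, miR-200b-3p was lower in PT cells than in PDGFR-β+ cells by a log2 difference of -1.31 (lower in 14 of 15 mice, adjusted p = 0.00128, exact). The size of this difference rests on few counts, as PDGFR-β+ cell libraries held 0 to 27 counts of miR-200b-5p (median 9). In UUO-7 replicate 4 of these cells it had 0 counts, and the pseudocount set the log2 ratio of 11.3. Relative to miR-192-5p, miR-200b-3p was lower in PT cells in 15 of 15 mice against PDGFR-β+ cells, by -1.84 (adjusted p = 0.000427, exact). PDGFR-β+ cells thus held more miR-200b-3p per count of miR-192-5p than PT cells did. Mean levels of miR-192-5p were 66500 CPM in PT cells and 2010 CPM in PDGFR-β+ cells, scaled over all libraries. Those of miR-200b-3p were 4370 and 512 CPM. The lower ratio in PT cells therefore reflects the larger PT difference of the marker, while miR-200b-3p itself was higher in PT cells.

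Members of 1 cluster did not hold one fixed proportion. Over the 16 PT cell libraries miR-141-3p outnumbered miR-200c-3p by 3.87-fold to 24.0-fold (median 6.78), over ECs by 4.92-fold to 36.3-fold (median 17.0), over Macs by 4.15-fold to 55.2-fold (median 18.1), and over PDGFR-β+ cells by 13.8-fold to 72.1-fold (median 23.2). The 2 PT cell libraries with the most miR-141-3p had ratios of 16.1 and 24.0, and their miR-200c-3p levels (135 and 93.8 CPM) did not stand out. In the chromosome 4 cluster the proportions were closer, with miR-200b-3p outnumbering miR-429-3p by 1.55-fold to 3.09-fold and miR-200a-3p by 4.08-fold to 8.97-fold over the PT cell libraries. These ratios were looked at after the data had been seen and are a description without a test.

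**Figure D4:**
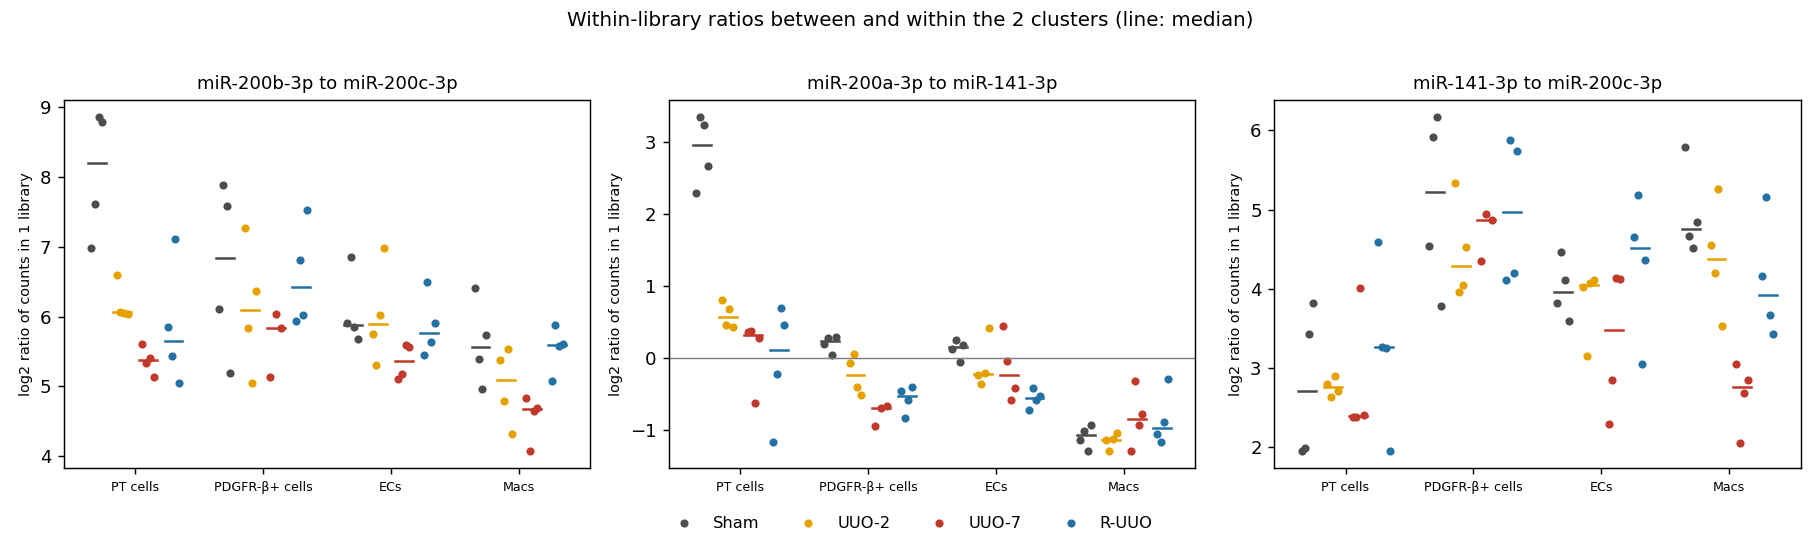
Log2 ratio of the counts of 2 members in each library, by cell type and condition, for both pairs that share a seed across clusters and for the 2 major arms of the chromosome 6 cluster; each line is the group median. In PT cells the ratio of miR-200a-3p to miR-141-3p lies between 2.30 and 3.35 in sham and between -1.16 and 0.81 afterwards.

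In Macs members were called in both directions, at no more than about the share of all loci at UUO-2 and UUO-7. Here 7 members passed the count filter, and miR-141-5p did not. At UUO-2 edgeR called none against sham, with 1 at an unadjusted p under 0.05 and none called by DESeq2, where 27.6% of 457 loci were called. At UUO-7, 3 were called against 43.1% of loci. The levels of miR-141-3p were 266, 196, 246 and 167 CPM in sham Macs, 237, 274, 257 and 264 CPM at UUO-2, 139, 90.8, 115 and 134 CPM at UUO-7, and 184, 292, 156 and 241 CPM at R-UUO. UUO-7 lay below the other 3 groups without overlap, opposite to PT cells, where UUO-7 lay above sham. The log2 fold change was -0.87 against sham (SE 0.203, FDR = 0.0017), and miR-200a-3p, which shares its seed, changed by -0.60 (SE 0.226, FDR = 0.0352). In the fit over all 63 libraries the first had an FDR of 0.0523, and with library size alone the second had one of 0.131. The level of miR-200c-3p, by contrast, was 4.74, 7.49, 10.6 and 5.70 CPM in sham and 16.4, 21.8, 17.7 and 18.4 CPM at UUO-7, higher without overlap (log2 fold change 1.41, SE 0.384, FDR = 0.00541). Without sham replicate 2, 5 members were called at UUO-7. In the same Mac libraries, scaled over all libraries, the summed PT markers were 3510 to 5210 CPM in sham and 1240 to 2260 CPM at UUO-7, and the summed Mac markers 35000 to 42000 and 18100 to 21300 CPM, both lower without overlap, and their part in these changes was not tested.

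From UUO-2 to UUO-7 in Macs, miR-429-3p, miR-200a-3p and miR-141-3p fell by 0.66, 0.80 and 1.11 on the log2 scale, 3 of 7 members against 30.6% of loci. In the fit over all 63 libraries none of these was called, and that of miR-429-3p was also lost without UUO-2 replicate 2 or UUO-7 replicate 2 or 4. From UUO-7 to R-UUO, miR-200a-3p (log2 fold change 0.89, FDR = 0.00876) and miR-141-3p (0.87, FDR = 0.00512) rose again, against 19.9% of loci, and 4 members were called without R-UUO replicate 1. At R-UUO miR-200b-3p was the 1 member called against sham (0.85, FDR = 0.0127), where 31.9% of loci were called. That call was lost when R-UUO replicate 5, in which it reached 1090 CPM against 345 to 586 CPM in the other R-UUO libraries, or sham replicate 2, 3 or 4 was left out, leaving 0 members. The summed PDGFR-β+ cell markers in Macs, scaled over all libraries, were 6780 to 9590 CPM at R-UUO, above the 1990 to 4990 CPM of sham and the 3140 to 4610 CPM of UUO-7 without overlap. At R-UUO the summed PT markers (1060 to 2290 CPM) and Mac markers (14800 to 27700 CPM) were lower than in sham without overlap. From UUO-2 to UUO-7 the summed Mac markers went from 24100 to 29800 CPM to the lower 18100 to 21300 CPM. The part of these shifts in the members' changes was not tested.

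In ECs edgeR called none of the 7 members that passed the filter in any of 5 comparisons. Of the 469 loci tested, 1.71% were called at UUO-2, 11.5% at UUO-7 and 16.8% at R-UUO against sham, 1.92% between UUO-2 and UUO-7 and 1.07% between UUO-7 and R-UUO. At an unadjusted p under 0.05 there was 1 member at UUO-7 and 1 at R-UUO against sham, and DESeq2 called none. The highest values against sham among those at an unadjusted p under 0.05 were 0.88 for miR-200c-3p at UUO-7 (SE 0.385, FDR = 0.129) and 0.66 for miR-141-3p at R-UUO (FDR = 0.124). The 4 EC libraries at UUO-7 (4.48 to 7.45 CPM) lay above the 4 sham libraries (1.55 to 4.08 CPM) for miR-200c-3p. Without sham replicate 3, 1 member was called at R-UUO.

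In PDGFR-β+ cells all 8 members passed the filter and 1 was called in 5 comparisons. Levels of miR-200a-3p were 252, 114, 198 and 169 CPM in sham and 44.4, 149, 77.9 and 82.1 CPM at R-UUO, overlapping through 1 library of each group. Its log2 fold change was -1.05 (SE 0.37, FDR = 0.0313), where 41.7% of 477 loci were called. From sham to R-UUO the summed PT markers in these libraries, scaled over all libraries, went from a range of 2080 to 3850 CPM to one of 835 to 1650 CPM. The summed EC markers went from 2040 to 2590 CPM to 465 to 706 CPM. The summed PDGFR-β+ cell markers themselves went from 326000 to 398000 CPM to 92500 to 159000 CPM. All were lower without overlap, and their part in the miR-200a-3p call was not tested. This call did not hold without R-UUO replicate 1, 4 or 5 or sham replicate 1 or 3 (0 members), and 2 members were called without R-UUO replicate 2 or sham replicate 2. Against sham, edgeR called no member at UUO-2 (6.29% of loci, 1 member at an unadjusted p under 0.05, 0 by DESeq2) or at UUO-7 (48.2% of loci, 0 members at an unadjusted p under 0.05, 1 by DESeq2). The same held between UUO-2 and UUO-7 (33.8% of loci) and between UUO-7 and R-UUO (3.98% of loci), with none at an unadjusted p under 0.05 and none by DESeq2. The median log2 fold change at UUO-7 was -0.40 over the members and 0.50 over all loci. With library size alone the latter was 1.02, so the scaling bears on any direction read from this group. Without sham replicate 4, 1 member was called at UUO-7.

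Other miRNAs known from epithelial cells, a list of 12 that includes the PT markers miR-192-5p, miR-194-5p and miR-215-5p, were set beside the family. Across all conditions 11 of 12 were higher in PT cells than in the mean of the other 3 cell types, against 32.9% of all loci. The exception, miR-215-5p, was not called (log2 difference -0.33). Against single cell types, 9 were higher and 1 lower than in ECs, 11 higher than in Macs and 8 higher than in PDGFR-β+ cells. Over all loci 36.5%, 33.4% and 32.8% were called higher there. Mean levels of miR-204-5p and miR-30a-5p were higher in ECs (1500 and 53700 CPM) than in PT cells (782 and 40400 CPM). Against the mean of the other cell types within sham alone, 5 of 12 were higher in PT cells and 1 was lower. There 29.1% of loci were called higher. Against sham within PT cells, 11 passed the filter, and 6 were called higher and 2 lower at UUO-2, 6 and 3 at UUO-7, and 7 and 3 at R-UUO. Over the 330 loci tested, 49 were called higher and 14 lower at UUO-2, 84 and 58 at UUO-7, and 85 and 43 at R-UUO. Like the chromosome 6 cluster, miR-182-5p rose at all 3 (log2 fold changes 2.78, 4.32 and 4.33), as did its cluster mate miR-183-5p (3.29, 4.64 and 4.71) and miR-375-3p (1.19, 3.94 and 2.91). The members called lower at UUO-7 were miR-192-5p, miR-194-5p and miR-203-3p (-1.62, -1.44 and -1.03). In the R-UUO replicate 1 library of PT cells, miR-182-5p stood at 19200 CPM, scaled over all libraries, against 3320 to 7360 CPM in the other 3.

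Over the 16 group means, the loci with a pattern most like the mean of the family were miR-192-3p (Pearson's r = 0.95), miR-346-5p (0.948), miR-30e-5p (0.934), miR-7240-5p (0.931) and miR-194-5p at its locus on chromosome 1 (0.929), a description across groups that share libraries and scaling. The order depended on the measure. Over the 63 libraries miR-30f came first (0.888) and miR-192-3p was among the next 4 (0.879), and by Spearman's rho over the group means miR-7240-5p came first (0.9), with neither miR-192-3p nor miR-346-5p among the nearest 5. Among the members, likeness to the family mean was highest for miR-200b-3p (0.988) and lowest for miR-141-3p (0.826).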

How the data were processed

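Per the submitters' processing notes, Trim Galore 0.4.1 and cutadapt 1.1 trimmed the reads. The authors mapped these with ShortStack, which wraps Bowtie, on GRCm38 and miRBase 22, and deposited raw counts per mature miRNA locus. They removed 1 UUO-7 PDGFR-β+ library as an outlier, and it was not analysed here. A further column of the table exceeded the sum of the 63 libraries and was not used.

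Counts were filtered with filterByExpr, scaled by TMM and tested with edgeR 4.0.16 (quasi-likelihood) in R 4.3.3, over all 63 libraries between cell types and within a cell type between conditions, where the filter left 330 to 477 loci. Calls required an FDR under 0.05 and a fold change over 1.5. Within-library ratios used a pseudocount of 0.5, libraries with at least 10 counts over the pair, and permutation tests (exact over mice, otherwise 100000 resamples) in Python 3.11.15. The members, the marker lists and the list of other epithelial miRNAs were chosen with earlier results of these data known, and all 8 members were named throughout.

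Cell types share mice by the labels. Deviations from group means correlated at 0.0571 on average between libraries of the same mouse and at -0.0191 between other mice of the condition. Across conditions a shared number marks different mice (mean correlation -0.023). Alternatives were library size alone, DESeq2 size factors, DESeq2 1.42.0, no count filter, other sets of libraries in the fit, a replicate block and each replicate left out. On counts simulated for PT cells at UUO-7, 164 of 165 changed loci were recovered, and for the interaction at UUO-7 125 of 162. Replicate pairs differed beyond counting noise (chi-square per degree of freedom at least 8.96).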

Additional observations from a re-analysis of the deposited data

Results flagged for a closer look

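In 8 of 120 groups of 4 libraries, 1 library lay far from the other 3 on the log2 scale by Dixon's test, and chance alone gives about 1 in 20. Levels here are CPM scaled over all libraries. Among PT cells these were miR-141-3p at UUO-7 in replicate 4 (1940 CPM against 587 to 706), miR-200a-5p at UUO-7 in replicate 2 (22.0 CPM against 39.7 to 42.8) and miR-429-3p at R-UUO in replicate 2 (1930 CPM against 1450 to 1490). In sham Macs replicate 1 was highest for miR-200a-3p (78.0 CPM against 59.8 to 62.2) and for miR-200b-3p (262 CPM against 206 to 212). In sham ECs replicate 3 was highest for miR-429-3p (287 CPM against 164 to 172). In PDGFR-β+ cells at R-UUO, miR-141-5p was highest in replicate 2 (4.56 CPM against 1.58 to 1.85, from 15 counts) and miR-200a-5p was lowest in replicate 1 (1.48 CPM against 4.86 to 5.81, from 6 counts).

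By the interaction in edgeR, the change in PT cells exceeded the mean change of the other 3 cell types for miR-141-3p at UUO-2 (log2 2.69) and UUO-7 (3.65). The same held for miR-200c-3p at UUO-2 (2.09) and UUO-7 (2.29), and for miR-200a-3p at UUO-7 (1.06). The change in PT cells was not tested against that of each cell type singly.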

How the results depend on the processing

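Counts of members called are given here where an alternative moved them by more than 1.5 times. Smaller moves included 7 between PDGFR-β+ cells and ECs and 2 in PT cells at R-UUO against sham with library size alone, and 4 each between PDGFR-β+ cells and ECs or Macs with DESeq2. With library size alone, 1 member was called between PDGFR-β+ cells and Macs and 8 between ECs and Macs, 1 in the interaction at UUO-2, 1 in Macs at UUO-2 against sham, 1 in Macs at R-UUO against UUO-7 and 0 in PDGFR-β+ cells at R-UUO against sham. The same scaling turned the sign between PDGFR-β+ cells and Macs for members including miR-200b-3p (-0.15), miR-141-5p (-0.10), miR-141-3p (-0.35) and miR-200c-3p (-1.04). Between ECs and Macs it turned the sign for miR-429-3p (-1.11), miR-200a-5p (-1.26), miR-200a-3p (-1.04), miR-200b-3p (-1.08) and miR-141-5p (-1.24). With DESeq2, or its size factors in edgeR, PDGFR-β+ cells had 1 member at UUO-7 and 2 at R-UUO against sham. Without the count filter there was 1 in ECs and 0 in Macs at R-UUO against sham, 1 in PT cells between UUO-2 and UUO-7, and 2, 1 and 2 against sham in PDGFR-β+ cells at UUO-2, UUO-7 and R-UUO, with 1 from UUO-2 to UUO-7. Fitting only the compared groups gave 1, 0 and 1 in Macs (UUO-2 and R-UUO against sham, R-UUO against UUO-7), 1 in PT cells between UUO-2 and UUO-7, and 1 and 2 at UUO-2 and R-UUO in PDGFR-β+ cells. The fit over all 63 libraries gave 0 in Macs from UUO-2 to UUO-7 and 1 from UUO-7 to R-UUO, and 1 and 2 at UUO-2 and R-UUO in PDGFR-β+ cells. Leaving out 1 replicate gave 0 to 1 between ECs and Macs, 1 to 3 and 2 to 5 in the interaction at UUO-2 and UUO-7 (5 without R-UUO replicate 1), 0 to 1 in ECs at R-UUO, 0 to 1, 3 to 5 and 0 to 1 in Macs at UUO-2, UUO-7 and R-UUO, 2 to 4 in Macs from UUO-7 to R-UUO, and 0 to 1 and 0 to 2 in PDGFR-β+ cells at UUO-7 and R-UUO. The causes were not tested. No alternative run took the call of miR-141-3p or miR-200c-3p away in PT cells against sham, or that of any member between PT cells and the other 3 over all conditions.

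With mouse as a replicate block between cell types, the call of miR-141-5p between PDGFR-β+ cells and Macs was lost (log2 0.92, FDR = 0.0685), and miR-200b-3p passed in the interaction at UUO-2 (0.79, FDR = 0.0265) and UUO-7 (0.66, FDR = 0.046). No other call of a member between cell types changed with this pairing. Without pairing by mouse, 2 ratios to miR-200b-3p between PT cells and Macs no longer passed, against miR-200b-5p (-0.49, adjusted p = 0.0825) and miR-192-5p (-0.71, adjusted p = 0.0612). With the number as a replicate block across conditions, where it pairs no mice, 0 members were called at R-UUO against sham in Macs and 0 in PDGFR-β+ cells, and miR-141-5p was no longer called in PT cells at UUO-2 and R-UUO. Among the changes in PT cells against sham, the SE was widest for miR-141-5p (0.63 to 0.652), which had 1 to 6 counts per sham library.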

Other observations

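The opposite arms of miR-200c and miR-429 were almost absent. Each had 8 counts in all, miR-200c-5p in 6 libraries and miR-429-5p in 3, so both hairpins gave nearly all of their counts from the 3p arm.

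The clusters also differed in which other loci followed them, which was looked at after the data had been seen. Over the 16 group means, the locus most like the mean of the chromosome 4 cluster was miR-192-3p (Pearson's r = 0.971), with miR-194-5p on chromosome 1 (0.965) and miR-30e-5p (0.964) next. The locus most like the chromosome 6 cluster was miR-182-5p (0.915), with miR-7001-3p (0.913), miR-6978-3p (0.909), miR-653-5p (0.908) and miR-183-5p (0.897) next.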
